A study of Mus musculus with 6 samples.

Results

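The red cell membrane skeleton, with band 3 and its partners in the membrane, was followed here through 8 listed genes, Sptb, Ank1, Epb4.1, Epb4.2, Slc4a1, Gypc, Rhag and Rhd. Members were all probe sets annotated to 1 of these genes alone in the platform annotation, where Epb4.1 is now Epb41 and Epb4.2 is now Epb42. This gave 14 probe sets of 7 genes out of 45032 probe sets analysed, and all 14 lay above the filter on low values that left 27019 probe sets for testing. Epb41 carried no such probe set and was not analysed here. Signal was measured on 6 Affymetrix mouse arrays of CD71+/Ter-119+ bone marrow cells isolated by sorting, 3 from mice labelled Rb-null (EpoR-GFPcre/+; Rb fl/fl) and 3 from controls (EpoR-GFPcre/+; Rb fl/+). All 6 arrays therefore came from mice with a Cre at the erythropoietin receptor locus, which is active in the red cell lineage, and with at least 1 floxed Rb allele. The sources used here give neither age nor strain, nor whether arrays of a group came from separate animals. The p-values measure the spread between these arrays, which may be technical.

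A red cell survives the shear of the circulation because a flat network of spectrin lies under its membrane. Spectrin chains join into long, flexible rods. Ankyrin ties beta spectrin to band 3, the anion exchanger, with protein 4.2 bound at the same place and the Rh proteins in the same complex. At the other end, protein 4.1R joins spectrin and short actin filaments to glycophorin C. Inherited defects of spectrin, ankyrin, band 3, protein 4.2 or protein 4.1R cause hereditary spherocytosis or elliptocytosis. Erythroid precursors make most of these proteins as they mature.

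Upstream sequence was set beside the values for 3 of the 7 measured genes, because GATA1 and Klf1, factors of red cell gene expression, bind GATA and CACCC motifs, and Rb acts through E2F factors. The 250 bases before the transcript start were read from RefSeq (GRCm38.p6), on the strand of the gene. Capitals mark matches on either strand to a GATA motif, a CACCC box (CCNCNCCC) or an E2F motif (the string TTTCCCGC, its variant TTTGGCGC, the further form TTTCGCGC, or lastly the form TTTGCCGC). The GATA motif was searched in the usual form of the erythroid factor, AGATAA. It was also searched with the last letter changed, as AGATAG. The remaining forms began with another letter, and the first of these was TGATAA. The last form, searched in the same way over both strands of every window, was TGATAG. The windows lie at chr12:76710548-76710797 (Sptb, minus strand), chr2:121036878-121037127 (Epb42, minus strand) and chr4:134864286-134864535 (Rhd, plus strand).
Sptb: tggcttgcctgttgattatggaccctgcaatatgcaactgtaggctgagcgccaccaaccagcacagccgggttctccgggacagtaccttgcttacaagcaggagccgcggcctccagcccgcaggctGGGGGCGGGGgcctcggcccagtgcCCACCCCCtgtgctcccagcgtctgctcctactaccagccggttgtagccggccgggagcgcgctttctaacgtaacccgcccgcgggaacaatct
Epb42: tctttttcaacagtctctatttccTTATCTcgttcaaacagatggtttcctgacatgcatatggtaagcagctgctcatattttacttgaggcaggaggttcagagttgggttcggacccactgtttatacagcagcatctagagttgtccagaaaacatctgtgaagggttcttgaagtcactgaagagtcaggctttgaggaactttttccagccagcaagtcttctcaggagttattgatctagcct
Rhd: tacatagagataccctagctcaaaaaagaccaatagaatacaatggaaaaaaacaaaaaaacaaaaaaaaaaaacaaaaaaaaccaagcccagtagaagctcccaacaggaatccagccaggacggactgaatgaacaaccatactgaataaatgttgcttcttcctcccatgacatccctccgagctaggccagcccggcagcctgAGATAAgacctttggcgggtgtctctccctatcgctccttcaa

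Epb42 and Rhd each held a single GATA match, and Sptb held none. The Rhd match lay at bases -43 to -38 from the start, while that of Epb42 lay at -226 to -221. Sptb held 3 CACCC matches, of which 2 overlapped, and no CACCC match was found in the other windows. No E2F match was found in any of the 3. Among 32851 RefSeq windows of the same length, 26.5% held a GATA match, 45.9% a CACCC match and 1.86% an E2F match. The window listed for Rhag reaches into the annotated gene and was not used here. Windows on chromosome 18, where Gypc lies, were left out by a set rule, and none was used for Ank1 or Slc4a1. A match is a string of letters in this window and no measure of binding.

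Among 8 erythroid markers, 5 had a probe set, and 3 of these were bright on all 6 arrays. Tfrc, which encodes CD71, read 6086 to 8506, Alas2, the first enzyme of heme synthesis in red cells, read 8760 to 10602, and Klf1, an erythroid transcription factor, read 2369 to 5220. Klf1 was higher on the Rb-null array of each pair, with a difference of 0.45 (limma adjusted p = 0.249 with the replicate number as a block). After normalization Tfrc was also higher in each pair (difference 0.09), while Alas2 was lower in each pair (-0.10) and Epor lay at -0.14. Epor read 2221, 266 and 609 in controls 1 to 3 and 248, 2228 and 558 on the arrays labelled Rb-null. Its pairs thus went opposite ways, at -3.24, 2.96 and -0.14 log2. The Hba-a1 probe set read 6.97 to 27.0 and lay below the filter. Rb1, the floxed gene, was lower in controls (2760, 2152 and 1379 for arrays 1, 2 and 3) than on the arrays labelled Rb-null (4045, 3670 and 2897), in each pair. The sources used here do not place that Rb1 probe set inside or outside the floxed stretch, so it does not check the labels, and each direction rests on the labels alone. The 3' to 5' actin signal ratio, a measure of RNA integrity, was 1.67, 1.15 and 1.18 on control arrays 1 to 3 and 1.43, 1.10 and 1.01 on arrays labelled Rb-null. The like ratio for Gapdh was 1.16, 1.34 and 0.948 in controls and 1.17, 1.38 and 0.737 on arrays labelled Rb-null, so only the actin ratio was lower in all 3 pairs. Arrays that share a number resembled each other, and each pair below is the Rb-null array minus the control array of that number.

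Most skeleton genes read slightly higher on the arrays labelled Rb-null, by amounts that did not pass the test over all probe sets. None of the 14 probe sets passed limma's test (adjusted p = 1.00 for each, over 27019 probe sets), where 0 of all those tested passed (0%). At unadjusted p under 0.05 the count was 0 of 14 members, against 1119 or 4.14% of all probe sets. With the replicate number as a block, 0 of 14 members and again 0% of all probe sets passed at adjusted p under 0.05. Differences ran from -0.20 for Rhag to 0.71 for the dimmest probe set of Slc4a1, on the scale of log2(intensity + 16). That probe set is called dim below only against the other Slc4a1 probe sets. Its mean intensity lay at percentile 97.8 of all probe sets analysed. Taking for each gene the probe set with the highest mean, 5 of 7 differences were positive, with a median of 0.05, against a median of -0.01 and 48.4% positive over all probe sets tested. The median over the 7 genes was 0.12, 0.16 and 0.05 in pairs 1, 2 and 3. The median of 0.05 moved with single arrays left out, which breaks a pair and lets the spread over replicate numbers into the difference. It was 0.0035 without Rb-null replicate 1, 0.012 without Rb-null replicate 3 and 0.030 without control replicate 2. It was 0.088 without control replicate 3 and 0.10 without Rb-null replicate 2.

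**Figure D1:**
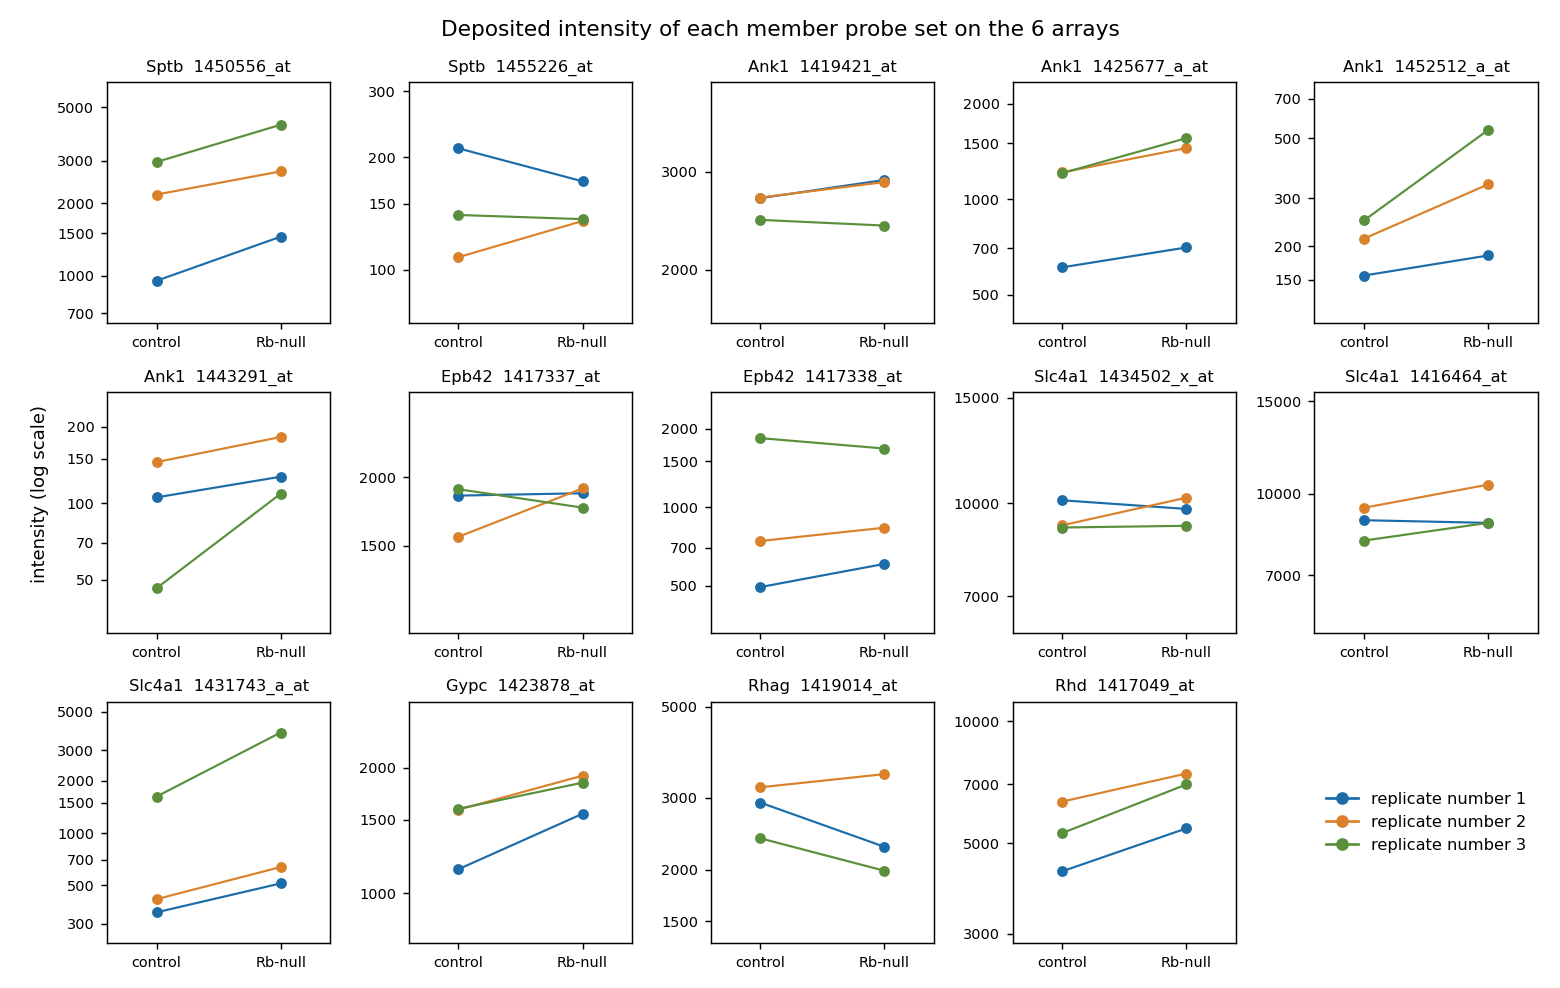
Deposited intensity (log scale) of the 14 member probe sets on each array, 1 panel a probe set, with lines joining the control and Rb-null array of the same replicate number. The vertical axis differs between panels. Lines for Rhd and Gypc slope up in all 3 pairs, those of the bright Slc4a1 probe sets are nearly flat, and the dim Slc4a1 probe set spans 348 to 3803.

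Beta spectrin, the long chain of the network, was read by 2 probe sets of Sptb (chromosome 12). The brighter (1450556_at) gave 953, 2174 and 2968 for controls 1, 2 and 3 and 1453, 2713 and 4236 for the arrays labelled Rb-null. It was higher in each pair, by 0.52, 0.21 and 0.54 log2, but the groups overlapped, as control arrays 2 and 3 lay above Rb-null array 1. The difference was 0.42 (SE 0.51, 95% interval -0.75 to 1.60; SE 0.161 with the replicate number as a block), and it was -0.018 without control replicate 1 and 0.012 without Rb-null replicate 3. It was 0.83 without Rb-null replicate 1 and 0.77 without control replicate 3. Leaving out 1 array breaks a pair, so the spread over replicate numbers enters these values. The dimmer (1455226_at) read 211, 108 and 140 in controls and 172, 135 and 137 on the arrays labelled Rb-null, lower in pairs 1 and 3 and higher in pair 2. Its difference was -0.02 (SE 0.32), and between -0.28 and 0.18 with 1 array left out. The 2 probe sets of Sptb therefore disagreed in sign.

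Ankyrin-1, the link from spectrin to band 3, was read by 4 probe sets of Ank1 (chromosome 8). The brightest (1419421_at) read 2691, 2698 and 2459 in controls and 2902, 2876 and 2401 on the arrays labelled Rb-null. These values lay close together, with the highest array 1.21-fold above the lowest, and the difference was 0.05 (SE 0.25, 95% interval -0.52 to 0.62), and between -0.040 and 0.11 with 1 array left out. The other 3 were higher in each pair, with overlapping groups. Probe set 1425677_a_at read 610, 1216 and 1209 in controls against 705, 1450.5 and 1558, a difference of 0.20 (SE 0.42). Its sign turned with single arrays left out, to -0.12 without control replicate 1 and -0.08 without Rb-null replicate 3. It was 0.58 without Rb-null replicate 1 and 0.43 without control replicate 3. Such a fit breaks a pair, so the spread over replicate numbers enters it. The 3 pairs themselves lay at 0.09, 0.20 and 0.31 log2. Probe set 1452512_a_at read 156, 213 and 249 in controls against 185, 338 and 537, a difference of 0.62 (SE 0.46). Rb-null array 3 stood highest there, and without it the difference was 0.17, while it was 1.02 without Rb-null replicate 1. Probe set 1443291_at read 106, 145 and 46.4 in controls against 127, 182 and 109, a difference of 0.52 (SE 0.33), and 0.23 without control replicate 3, its lowest array. The suffix _a marks, in the maker's naming, probes shared by transcripts of the same gene, and the sources used here do not say which Ank1 transcripts each probe set reads.

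Protein 4.2, which steadies the contact of ankyrin with band 3, was read by 2 probe sets of Epb42 (chromosome 2). The one with the higher mean (1417337_at) read 1853, 1558 and 1903 in controls and 1872, 1909.6 and 1762 on the arrays labelled Rb-null. The groups overlapped and the difference was 0.00 (-0.0017, SE 0.27, 95% interval -0.61 to 0.61). Its sign turned with the scaling, to 0.06 on the deposited scaling. The other (1417338_at) read 494, 742 and 1839 in controls and 606, 835 and 1678, a difference of 0.06 (SE 0.58), and between -0.41 without Rb-null replicate 3 and 0.64 without control replicate 3. On that probe set both arrays numbered 3 stood far above those numbered 1 and 2, whatever the genotype.

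Band 3, the chloride and bicarbonate exchanger that anchors the network, was read by 3 probe sets of Slc4a1 (chromosome 11). The bright probe set 1434502_x_at read 10119, 9190.45 and 9114 in controls and 9788, 10221 and 9174 on the arrays labelled Rb-null. Its difference was 0.02 (SE 0.25, 95% interval -0.55 to 0.59), and between -0.073 and 0.085 with 1 array left out. The second bright probe set, 1416464_at, read 8905, 9404 and 8144 against 8801, 10409.8 and 8802, with a difference of 0.06 (SE 0.24). In both, the groups overlapped and no array stood apart. The first stood at 73.6% to 92.0% and the second at 69.2% to 83.8% of the brightest probe set of each array. Whether signal this near the top of the range still follows RNA amount was not tested. The suffix _x marks probes that can also bind other transcripts.

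The third Slc4a1 probe set (1431743_a_at) gave the widest range among the members. Controls 1, 2 and 3 gave 348, 415 and 1623, and the arrays labelled Rb-null gave 512, 636 and 3803. Each pair was higher, by 0.46, 0.58 and 1.11 log2, yet control array 3 lay above Rb-null arrays 1 and 2. The difference was 0.71 (SE 0.87, 95% interval -1.28 to 2.71; SE 0.189 with the block). It was 0.52 without both arrays numbered 3, -0.23 without Rb-null replicate 3 and 1.46 without control replicate 3. Each other array left out moved it to between 0.32 and 1.26. Here too, leaving out a single array breaks a pair and takes in the spread over replicate numbers. Set against the brighter 1434502_x_at on the same array, this probe set was higher on the Rb-null array by 0.55, 0.44 and 1.09 log2 in pairs 1, 2 and 3, a comparison added after the values were seen and given with no test.

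Glycophorin C, which holds protein 4.1R at the membrane, was read by a single probe set of Gypc (1423878_at, chromosome 18). It read 1143, 1586 and 1594 in controls and 1551, 1913 and 1841 on the arrays labelled Rb-null. Each pair was higher, by 0.33, 0.16 and 0.13 log2, while Rb-null array 1 lay below control arrays 2 and 3. The difference was 0.21 (SE 0.27, 95% interval -0.42 to 0.83), 0.07 without control replicate 1, 0.11 without Rb-null replicate 3 and 0.34 without control replicate 3. On the deposited scaling it was 0.30.

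The Rh proteins sit beside band 3 in the membrane, and Rhag belongs to the family of ammonia channels. The Rh polypeptide, Rhd (1417049_at, chromosome 4), read 4268, 6335 and 5300.2 in controls and 5442, 7429 and 6981 on the arrays labelled Rb-null. Each pair was higher by a like amount, 0.37, 0.25 and 0.28 log2. On deposited values control array 2 lay above Rb-null array 1, and after quantile normalization the groups no longer overlapped. The difference was 0.30 (SE 0.26, 95% interval -0.29 to 0.89), and with the replicate number as a block its SE was 0.151 (limma adjusted p = 0.375). Without control replicate 1 it was 0.19. It was the only member of 14 without overlap, where 5.73% of all probe sets lay higher and 3.91% lower in Rb-null without overlap. The Rh-associated glycoprotein, Rhag (1419014_at, chromosome 17), on which Rh proteins depend to reach the membrane, read 2921, 3183 and 2389 in controls and 2278, 3428 and 1991. Pairs 1 and 3 lay at -0.41 and -0.22 and pair 2 at 0.02, with overlapping groups and a difference of -0.20 (SE 0.27, 95% interval -0.82 to 0.42; SE 0.166 with the block). It was -0.097 without Rb-null replicate 3 and -0.36 without Rb-null replicate 2.

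**Figure D2:**
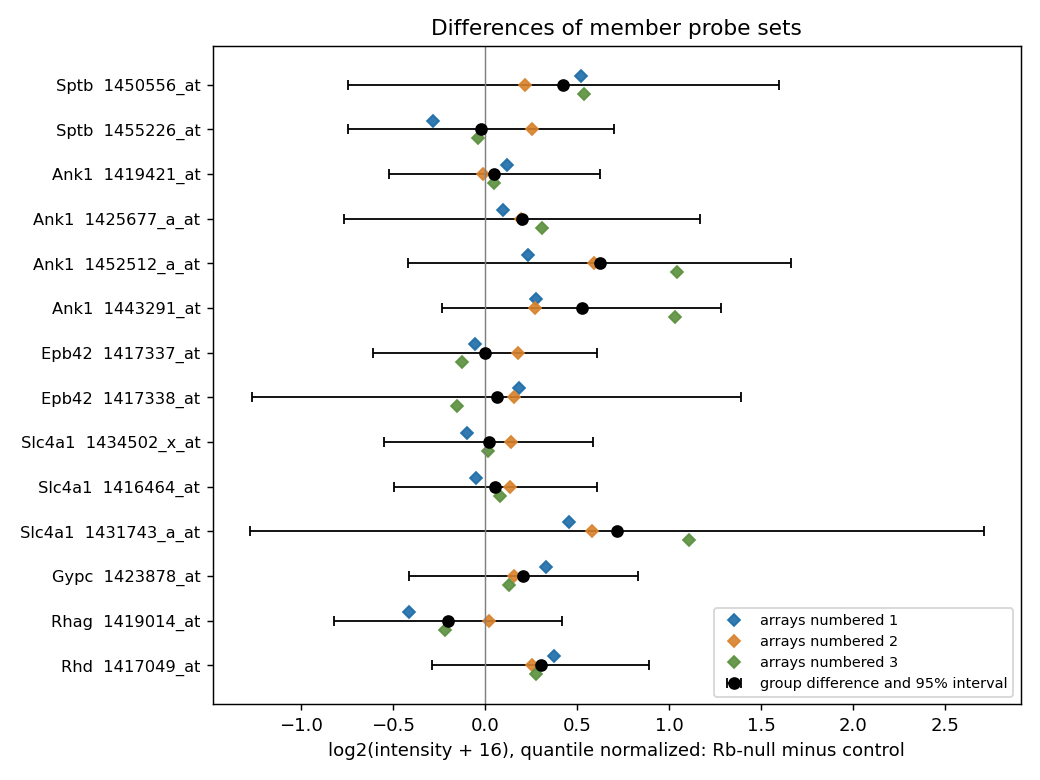
Log2 differences (Rb-null minus control, quantile normalized) of the 14 member probe sets, with black points for the group difference, bars for its 95% interval from limma without the replicate block, and coloured diamonds for the 3 pairs. Each interval spans 0, and diamonds lie at or near the same place for Rhd (0.37, 0.25 and 0.28) and far apart for the dim Slc4a1 probe set (0.46, 0.58 and 1.11).

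Counted by pairs, 7 of 14 probe sets were higher on the Rb-null array of every pair and 0 were lower in every pair, where 20.3% and 22.0% of all probe sets were. The 7 belong to 5 genes, Sptb, Ank1 with 3 probe sets, Slc4a1, Gypc and Rhd, and probe sets of a gene share its RNA. Among the probe sets with the highest mean of each gene the count was 3 of 7, Sptb, Gypc and Rhd. With the replicate number as a block, 4 of 14 had an unadjusted p under 0.05, all of them higher. Of all 27019 probe sets tested, 8.72% were higher at that p, and 4458 passed it in either direction. The 4 members were the dim Slc4a1 probe set (limma adjusted p = 0.171 with the block), 1452512_a_at of Ank1 (0.231), the bright Sptb probe set (0.280) and 1443291_at of Ank1 (0.296). Adding a variance trend and robust moderation to the block, a fit chosen with earlier results known, called 3.47% of all probe sets and 0 of the 14 members. The lowest adjusted p there was 0.0579 for the dim Slc4a1 probe set, then 0.0865 for the bright Sptb probe set and 0.0885 for Rhd.

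Markers of granulocytes, macrophages and B cells mostly lay lower beside these values, while the few T and NK cell markers split. The sort for CD71 and Ter-119 selects red cell precursors, and no value here shows which cells this signal came from. Some granulocyte markers were as bright as the bright erythroid markers, with S100a8 at 9111 to 12488 and S100a9 at 7107 to 10783. Others were dimmer, such as Ctsg at 178 to 558. The sums run over every listed marker with a probe set, also those under the filter. Over all probe sets tested, 48.4% had a positive difference and 22.0% were lower in every pair. Of 11 granulocyte markers, 11 passed the filter, 11 had a negative difference and 6 were lower in every pair, with a median of -0.49. Their summed signal was 35559, 52956 and 39763 on control arrays 1 to 3 and 26439, 53115 and 32062 on the arrays labelled Rb-null. For macrophages 9 of 10 markers were negative and 3 were lower in every pair (median -0.41). Their sums were 1977, 1807.6 and 3001 on control arrays 1 to 3 against 1452, 1865 and 1821. In pair 2 neither the granulocyte nor the macrophage sum was lower. For B cells 5 of 6 markers past the filter were negative (median -0.55), with sums of 467 to 746 against 269 to 414. Of 4 erythroid markers past the filter 2 were positive (median -0.01), with sums of 20948 to 22829 against 20951 to 26504, which include Hba-a1 under the filter. For megakaryocytes all 3 markers past the filter were negative (median -0.24), with sums of 328 to 588 against 307 to 387. For T and NK cells 1 marker was positive and 1 negative (median 0.07), with sums of 161 to 276 against 126 to 284. No listed marker of these cell types with a probe set read 0 on all arrays. The part of these shifts in the members' values was not tested. In sorted cells read in bulk, fewer cells of a type and less RNA per cell cannot be told apart.

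Arrays also differed by replicate number, to very different degrees among members. For 13 of 14 probe sets the range of the 3 pair means was wider than the group difference, as it was for 84.4% of all probe sets tested. A range over 3 values tends to exceed a single difference. For Rhd the range and the difference were nearly equal, at 0.310 and 0.301. The range was 2.64 log2 for the dim Slc4a1 probe set, 1.77 for 1417338_at of Epb42 and 1.60 for the bright Sptb probe set. Control array 3 read 4.66 times control array 1 on the dim Slc4a1 probe set, 3.72 times on 1417338_at of Epb42 and 3.11 times on the bright Sptb probe set. The bright Slc4a1 probe sets showed ranges of 0.19 and 0.03. The sources used here do not say what a number marks.

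**Figure D3:**
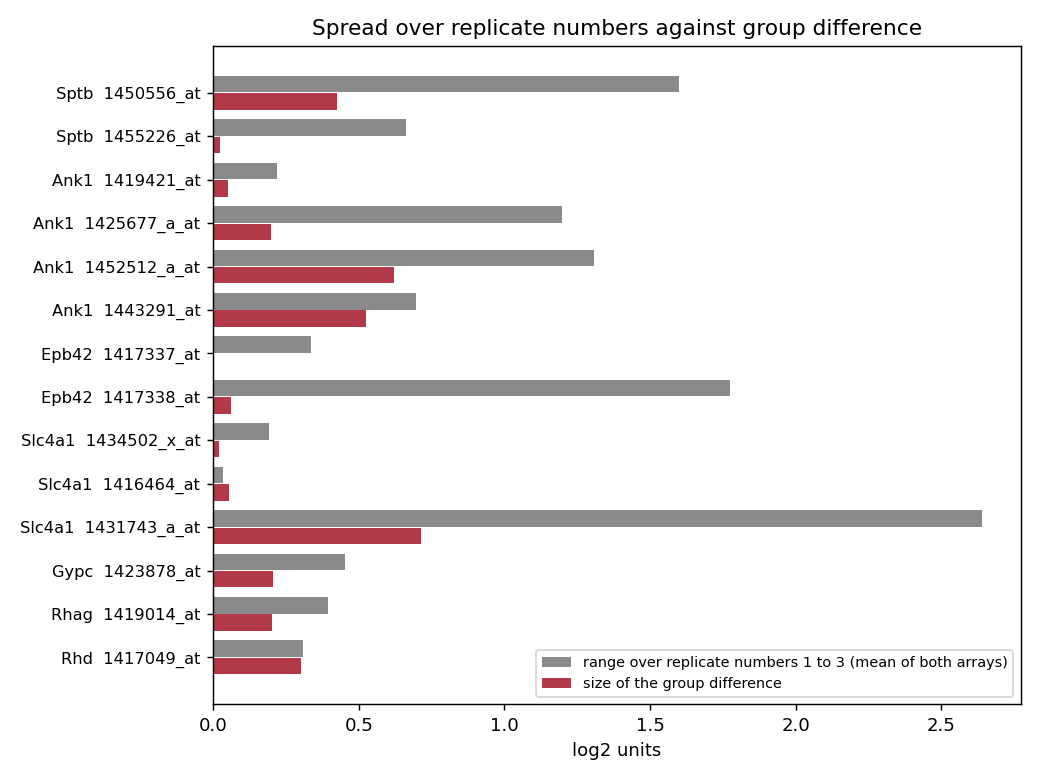
Range of the mean log2 value over replicate numbers 1 to 3 (grey) and size of the difference between Rb-null and control (red) for each member probe set, in log2 units from 0. The grey bar is longer for 13 of 14 probe sets, and reaches 2.64 for the dim Slc4a1 probe set.

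The rest of the membrane was read through a list of 40 further red cell membrane genes, of which 36 had a probe set and all 36 passed the filter. None passed limma's test, 20 were higher and 16 lower, and the median was 0.08. In every pair 11 were higher and 10 lower. The smallest p belonged to Cd59a, a complement inhibitor, which read 581, 628 and 651 in controls and 285, 374 and 248 on the arrays labelled Rb-null, with no overlap. Its difference was -1.05 (SE 0.26, limma adjusted p = 0.641), and its second probe set had -0.99 (SE 0.26).

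Mpp1, the palmitoylated scaffold p55 that binds protein 4.1R and glycophorin C, read 2882, 3433 and 5092 in controls and 1682, 2417 and 2349 on the arrays labelled Rb-null. The groups did not overlap, and the difference was -0.87 (SE 0.33, limma adjusted p = 1.00). A second, dim Mpp1 probe set had 0.03 (SE 0.32), so the Mpp1 probe sets disagree. In the fit with the block, trend and robust moderation both genes passed (limma adjusted p = 0.0248 for Cd59a and 0.0224 for Mpp1). That fit was chosen with earlier results known and called 3.47% of all probe sets. On its brighter probe set alone, Mpp1 thus read lower where Gypc, the gene of its membrane partner, read higher in each pair. This contrast of values was not tested.

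Among the other 4 genes with the smallest p, Icam4, an adhesion protein of erythroblasts, had 0.59 (SE 0.28) and was higher in each pair. Its groups did not overlap, where 5.73% of all probe sets lay higher in Rb-null without overlap. The chemokine-binding receptor Ackr1 had -0.77 (SE 0.35), Add2, the beta chain of adducin that caps actin in the skeleton, -0.58 (SE 0.34), and tropomyosin 1, Tpm1, -0.53 (SE 0.32). Of the other Add2 probe sets, 3 lay at -0.26, -0.49 and -0.66 and a dim one at 0.16. The other Tpm1 probe sets past the filter had -0.44 and 0.22. None of these 4 genes passed limma's test (adjusted p = 1.00). Without control replicate 3, Tpm1 had -0.25 and Add2 -0.37, and without control replicate 1, Add2 had -0.88.

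Relatives of the members that act mainly outside red cells gave no call either. Of 23 listed, 21 had a probe set and 17 passed the filter, 6 higher and 11 lower, with a median of -0.09. The smallest p belonged to Sptbn1, the beta spectrin of most other cells, which read 95.3, 132 and 66.0 in controls and 45.9, 126 and 20.2 on the arrays labelled Rb-null. Its difference was -0.71 (SE 0.44), but 2 further Sptbn1 probe sets gave 0.25 and -0.07, so they disagree. The 4.1 relatives Epb41l4a and Epb41l2 had -0.52 (SE 0.40) and 0.39 (SE 0.33), and a second Epb41l2 probe set past the filter had -0.56. Ank3, ankyrin-G, had 0.31 (SE 0.26), with other probe sets past the filter at 0.26 and -0.40. The anion exchanger Slc4a2 had -0.32 (SE 0.30). With 1 array left out, these values moved by more than 1.5 times. Without Rb-null replicate 3, Sptbn1 had -0.32, Epb41l4a -0.22, Epb41l2 0.20, Ank3 0.16 and Slc4a2 -0.16. Without Rb-null replicate 2, Sptbn1 had -1.17, Epb41l4a -0.79 and Slc4a2 -0.55. Without control replicate 2, Epb41l4a had -0.83 and Epb41l2 0.62. Epb41l4a had -0.25 without control replicate 1, and Epb41l2 had 0.22 without control replicate 3 and 0.03 without both arrays numbered 3. Tgm2, a transglutaminase related to protein 4.2, had -0.27 (SE 0.27), with its other probe sets past the filter from -0.71 to -0.28, and leaving out control replicate 2 gave it -0.16, as did leaving out Rb-null replicate 1.

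**Figure D4:**
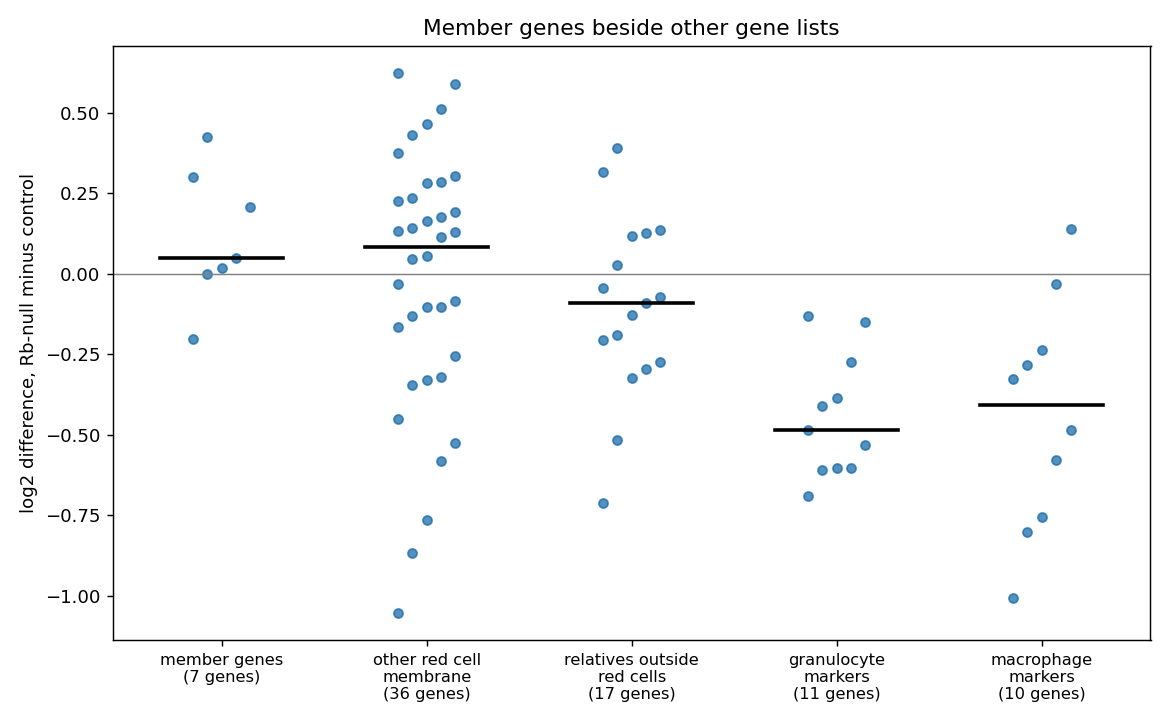
Log2 difference (Rb-null minus control) of each gene past the filter, 1 point a gene (probe set with the highest mean), for the 7 member genes, 36 other red cell membrane genes, 17 relatives, 11 granulocyte markers and 10 macrophage markers, with a black line at the median. Medians are 0.05, 0.08, -0.09, -0.49 and -0.41.

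The pattern over arrays was also compared with 13225 other genes past the filter, by the mean absolute difference of log2 values over the 6 arrays after subtracting each gene's own mean. Nearest to Slc4a1 on its brightest probe set were Scgb3a1 (0.016), Ciao1 (0.033), Cdkn2d (0.035), Samd4b (0.041) and Cox20 (0.043), where the median gene lay at 0.32. Nearest to the mean of the 7 member genes were Armcx1 (0.026), Ubald1 (0.038), 4930503B20Rik (0.040), Csad (0.040) and Il20 (0.041). About its own mean over the arrays, Slc4a1 ran from -0.19 on control array 2 to 0.12 on control array 1. The mean of the member genes ran from -0.18 on control array 1 to 0.19 on Rb-null array 3. These distances are small against the median gene partly by selection, as the nearest genes were picked for them.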

How the data were processed

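The authors deposited 1 intensity per probe set and array on a linear scale, per the values in the deposited table. The summary of probes and the scaling between arrays are not given in the sources used here. Of 45101 probe sets, 64 controls, 4 empty and 1 with a value beyond a 16-bit scanner were left out. Among the 45032 left, 34941 had 1 gene symbol, 932 several and 9159 none. Values were taken as log2(intensity + 16) and quantile normalized, as array medians differed by up to 0.264 log2. Probe sets above the 40th percentile of mean log2 (5.12) were tested with limma 3.58.1 in R 4.3.3, 3 against 3 arrays, 2-sided, with Benjamini-Hochberg adjustment over 27019 probe sets, threshold 0.05. The SE and intervals come from the fit without the replicate block. The fit was tested on simulated data.

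Replicate numbers were taken as pairs, because deviations from group means correlated at 0.639, 0.621 and 0.667 between arrays of the same number, across probe sets, which are not independent. For counts over genes, the probe set of highest mean stood for its gene. Named genes were all members, the 6 genes with the smallest p of the other red cell membrane list and of the relatives list, and the 5 nearest in pattern. Rb1, Tfrc, Alas2, Klf1, Epor, Hba-a1, S100a8, S100a9 and Ctsg are named as checks outside this rule, chosen after their values were seen. Members and lists were chosen with earlier results of these data known. No per-sample column was left unused.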

Additional observations from a re-analysis of the deposited data

How the results depend on the processing

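No member passed limma's test under any of the 18 alternatives, and the median over the 7 genes stayed between 0.0035 and 0.104 log2. With the replicate block it was 0.05, with 0 members called. Signs turned in 21 cases, all of probe sets whose difference was smaller than its SE without the replicate block. With the block, the SE was below the difference for some of them. It was 0.161 for 1450556_at of Sptb, 0.189 for 1431743_a_at of Slc4a1 and 0.153 for 1425677_a_at of Ank1. For the others the difference stayed below its SE. A fit with 1 array left out breaks a pair, so the spread over replicate numbers enters it. With 1 array left out in turn, differences ran from -0.040 to 0.11 for 1419421_at and -0.12 to 0.58 for 1425677_a_at of Ank1, from -0.16 to 0.088 for 1417337_at and -0.41 to 0.64 for 1417338_at of Epb42, from -0.073 to 0.085 for 1434502_x_at and -0.23 to 1.46 for 1431743_a_at of Slc4a1, and from -0.018 to 0.83 for 1450556_at and -0.28 to 0.18 for 1455226_at of Sptb. The difference of 1417337_at, -0.0017 in the report, was 0.058 with array weights, 0.061 without both arrays numbered 3, 0.065 on the deposited scaling and 0.065 with a median shift alone. That of 1455226_at was 0.011 with array weights. Rhd, Gypc and Rhag kept their sign under each alternative. The variance trend with the replicate block was added after seeing the data. With 3 arrays a group, the narrowest 95% interval among members without the block still ran from -0.49 to 0.61, for 1416464_at of Slc4a1.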
